A study of Homo sapiens with 28 samples.

Results

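The 8 genes described here belong to the complement system: C3, C2, CFB, CFD, CFP, C1R, C1S and SERPING1. They were chosen by symbol, and their rows are 8 of the 56809 gene rows in the deposited tables. They were read in U937 cells, a human line of monocyte-like lymphoma cells, and in clones of that line that each lack 1 member of the NF-kB transcription factor family. The clones carried a knockout of p50, p52, p65, cREL or RELB (each labelled -/-), or, as controls (CTR), had received non-specific guide RNAs. There were 3 CTR and 3 p65 clones and 2 clones of each other knockout, 14 in all, and each gave 1 library from untreated cells and 1 from cells with 500 ng/ml LPS (bacterial lipopolysaccharide), with a time point of 6 h. Polyadenylated RNA was amplified and sequenced, and the 28 libraries held 12643438 to 22122428 estimated counts. The p-values measure the spread between clones of a genotype, and the effect of a knockout cannot be told apart from other differences that all of its 2 or 3 clones share.

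Complement is a cascade of plasma proteins that marks microbes and damaged cells for uptake and lysis. The classical pathway starts with C1r and C1s, the serine proteases of the C1 complex, of which C1s cleaves C4 and C2. The C1 inhibitor encoded by SERPING1 blocks both proteases. All pathways meet at C3, whose fragments coat targets and signal to leukocytes. In the alternative pathway, factor D (CFD) cleaves factor B (CFB) bound to C3b, and properdin (CFP) stabilises the resulting convertase. The liver makes most of the plasma pool, and monocytes and macrophages make several of these proteins where inflammation occurs.

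The genes lie on 5 chromosomes in GRCh38 (positions from GENCODE release 29, each spanning the whole gene). C3 is on chromosome 19 from 6677704 to 6730562 on the minus strand, and CFD on the plus strand of the same chromosome from 859643 to 863630. C2 (chromosome 6, 31897785 to 31945672) and CFB (31945650 to 31952084) follow each other on the plus strand and overlap by 23 bases. C1S (chromosome 12, 6988259 to 7071032, plus strand) and C1R (7080199 to 7092607, minus strand) are separated by 9166 bases. CFP is on chromosome X from 47623172 to 47630305 on the minus strand, and SERPING1 on chromosome 11 from 57597387 to 57614853 on the plus strand. The libraries do not mark strand, so reads of C2 and of its antisense RNA C2-AS1 (101 estimated counts over all libraries) cannot be told apart. GPR108 overlaps C3 by 649 bases, and how the authors' quantification divided reads there was not tested.

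Promoter windows were available for 5 of the 8 members in RefSeq (GRCh38.p14), each the 250 bases before an annotated transcription start. They were searched for 4 motifs: the NF-kB consensus, the interferon-stimulated response element (ISRE, GAAA followed by 2 bases of any kind and a second GAAA) and the interferon-gamma activated sequence (GAS, TTCNNNGAA) on both strands, and a TATA box (TATAAA) on the gene strand. CFB is shown because it was the matched member with an NF-kB match, and CFD because it had the highest level of the 8 genes. Capitals mark the motif matches, and both windows are given 5′ to 3′ on the plus strand, CFB at chr6:31945845-31946094 and CFD at chr19:859414-859663.
CFB: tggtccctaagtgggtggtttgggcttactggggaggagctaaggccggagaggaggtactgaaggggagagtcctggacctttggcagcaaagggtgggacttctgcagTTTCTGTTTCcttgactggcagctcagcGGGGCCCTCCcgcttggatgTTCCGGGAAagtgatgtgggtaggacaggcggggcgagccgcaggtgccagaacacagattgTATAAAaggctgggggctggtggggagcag
CFD: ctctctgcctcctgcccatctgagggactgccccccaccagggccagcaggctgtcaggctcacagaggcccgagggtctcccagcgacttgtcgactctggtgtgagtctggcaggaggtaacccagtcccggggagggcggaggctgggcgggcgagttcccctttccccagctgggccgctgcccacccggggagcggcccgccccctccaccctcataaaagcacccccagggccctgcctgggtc

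In the CFB window the ISRE match, on the other strand, began 140 bases before the start, the NF-kB match 112 bases, the GAS match 92 bases and the TATA box 30 bases before it, and none overlapped. Of 35116 windows of the same length, 9.96% held an NF-kB match, 3.02% an ISRE match, 6.57% a GAS match and 6.80% a TATA box. The CFD window held no match to these letters, nor did those of C2 and CFP, and 1 of the C1R windows held a GAS match. A match is a run of letters and was not tested for binding.

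Levels between genes are compared in TPM, a scaled transcript abundance which corrects for gene length and library size. CFD had the highest mean over the 28 libraries, 103.0 TPM (lowest 46.7, median 88.8, highest 201). C2 followed with a mean of 38.1 TPM (24.9, 37.7 and 61.7). CFP had a mean of 16.5 TPM (5.13, 13.0 and 36.5) and C3 one of 15.2 TPM (3.27, 13.96 and 39.1), so these neighbours in the order had overlapping ranges. The lowest library of C2 was below the highest of CFP and of C3, while CFD stayed above CFP and C3 in all libraries. The other members averaged about 1 TPM or less: CFB with a mean of 1.01, C1R 0.97 and C1S 0.65.

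**Figure D1:**
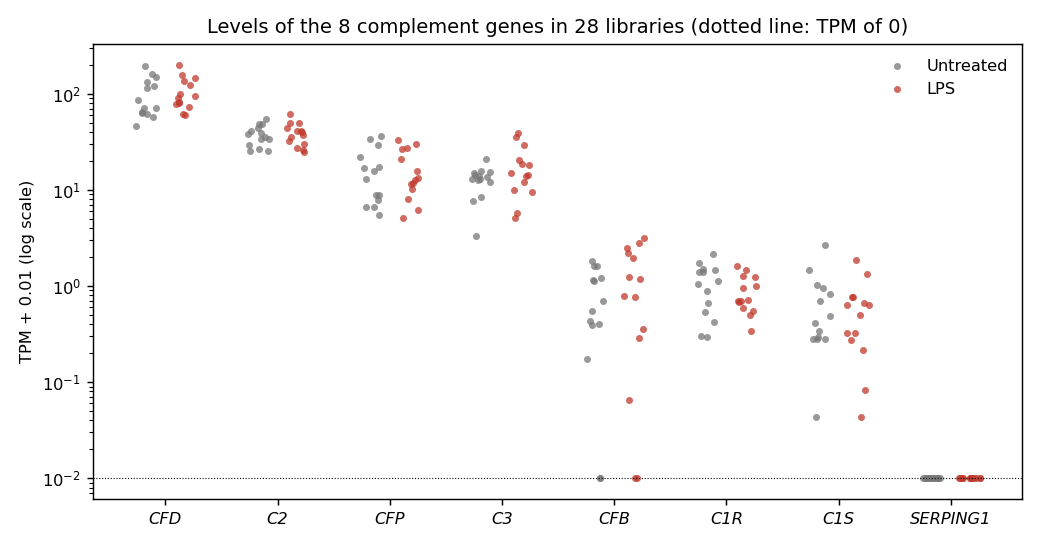
TPM plus 0.01 on a log axis for each of the 8 genes, 1 point per library, grey for untreated and red for LPS. CFD, C2, CFP and C3 lie above 3 TPM in every library, CFB, C1R and C1S have means of about 1 TPM or less, and SERPING1 lies on the dotted line at 0.

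SERPING1, the C1 inhibitor gene, was listed at 0 in all 28 libraries. A count of 0 allows up to 3 counts, which is 0.136 to 0.237 CPM (counts scaled to library size) in a single library. Of 8 housekeeping genes, 0 were at 0 in those libraries, and 2305 of 19865 protein-coding rows (11.6%) were at 0 in every library. Such limits cover counting error only.

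As a check of the line's identity, 7 of 8 myeloid markers had a mean of at least 1 TPM, led by LYZ at 1047 TPM. CD14, the LPS co-receptor gene, had 1.17 TPM, and MPO, a granule gene of early myeloid cells, 0.04 TPM. Hepatocytes and fibroblasts are other sources of complement, and 0 of 4 markers of each type reached a mean of 1 TPM, with ALB and FGB listed at 0 in all libraries. The summed fibroblast markers reached 1.15 to 3.44 TPM in the CTR libraries with LPS and 0 to 1.07 TPM without, and the part of such cells in the results was not tested. In the T and NK cell list CD3D was at 0 and NKG7 at 340 TPM; that list summed to 317 to 478 TPM in CTR with LPS and to 200 to 312 TPM in p65 with LPS, and its part was not tested either.

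Of the 8 genes, 7 passed the filter on low counts and were tested among 18624 genes in 21 comparisons with edgeR's quasi-likelihood test, with batch in the model and Benjamini-Hochberg adjustment over all genes tested. SERPING1 was not among them. This main fit had no term for clone, so the pairing of untreated and LPS libraries of a clone was not used in it. Log2 folds are given ± SE, and CPM are scaled by TMM.

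C3 was the member that rose with LPS in control cells. It stood at 47.4, 16.6 and 42.6 CPM in untreated CTR replicates 1, 2 and 3 and at 127, 40.9 and 109 CPM with LPS. Each control clone thus had a higher value with LPS, by ratios of 2.69, 2.47 and 2.56, although replicate 2, the only control of batch B, lay below the others at both states. The log2 fold was 1.36 ± 0.29 (95% interval 0.76 to 1.97; adjusted p = 0.0384). It was the single member called of 7 tested, where 0.408% of all genes were called and 0.403% called higher. In bulk RNA, more cells that express a gene and more RNA per cell cannot be told apart. The other 6 members had folds between −0.19 and 1.44, and the median of the 7 was 0.33, against 0.00 for all genes.

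The C3 fold was 1.17 to 1.38 over the 22 alternatives, and its call depended on the clones and the model. DESeq2 (adjusted p = 0.00139, with 0.866% of genes called) and limma voom with clone as a random effect (0.00273) made the call. With each clone as a block, so that untreated and LPS libraries of 1 clone are compared directly, the fold was 1.36 ± 0.18 (adjusted p = 4.16e-04). The fits with 1 clone left out used the main model, without the pairing, and the block fit was not repeated in this way. Without any single CTR clone, without either p50 or p52 clone or without p65 replicate 1, the call was lost. That is 8 of the 14 such fits. Over all 14 the fold was 1.33 to 1.38 and the adjusted p 0.0167 to 0.431. The deposited effective length of C3, the length over which reads could be counted, ranged from 2543 to 5038 bases between libraries, with CTR means of 3862 untreated and 4320 with LPS. With that length as an offset the fold was 1.17 (adjusted p = 0.221). On the TPM scale, which uses that length, C3 was 11.7 ± 3.88 untreated and 27.5 ± 12.7 with LPS in CTR (SD, n = 3). Within batch C alone, which holds CTR replicates 1 and 3, the fold was 1.38 (adjusted p = 0.487), and without a batch term in the fit of all libraries it was 1.38 (adjusted p = 1).

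**Figure D2:**
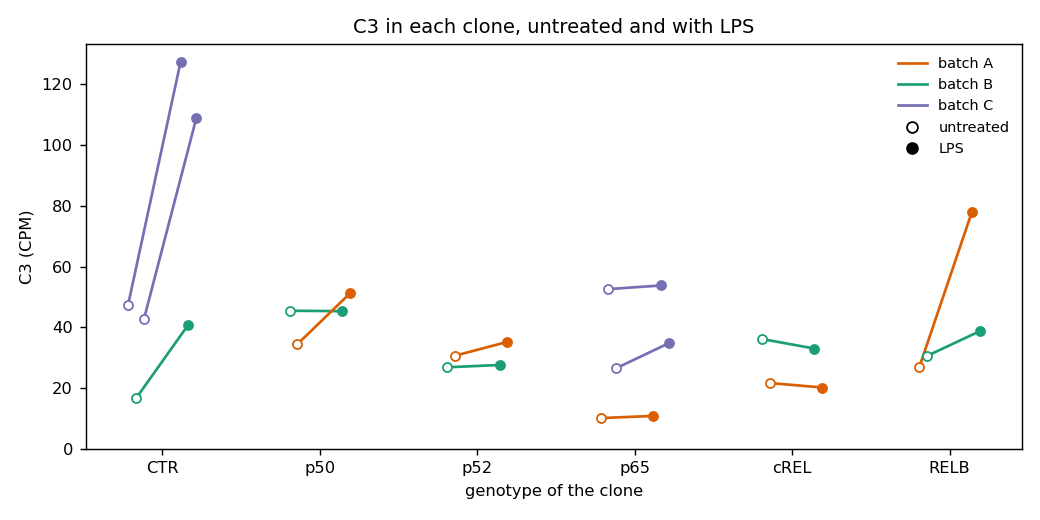
C3 in TMM-scaled CPM for each clone, open circles untreated and filled circles with LPS, joined by a line and coloured by batch. The lines of the 3 CTR clones and of RELB replicate 1 rise steeply, to 127 CPM at most, while those of the p52, p65 and cREL clones are shallow.

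In the knockouts the C3 values with and without LPS lay closer together, RELB apart. p50 replicate 1 had 45.5 CPM untreated and 45.3 CPM with LPS, and p50 replicate 2 had 34.5 and 51.2 CPM. The p52 clones had 26.8 and 27.6 CPM in replicate 1 and 30.6 and 35.2 CPM in replicate 2. The cREL clones had 36.2 and 33.0 CPM in replicate 1 and 21.7 and 20.2 CPM in replicate 2, so both were lower with LPS. The log2 fold was 0.28 ± 0.35 in p50, 0.13 ± 0.35 in p52 and −0.12 ± 0.35 in cREL, each with an adjusted p of 1. For these fits 0.0161%, 0.0215% and 0.0107% of all genes were called.

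Across the p65 clones, which lack the main transactivating subunit by their label, C3 stood at 52.6 CPM untreated and 53.8 CPM with LPS in replicate 2 and at 26.6 and 34.8 CPM in replicate 3. The libraries labelled p65 replicate 1 had 10.1 and 10.8 CPM. Those libraries held RELA, the gene that encodes p65, at 53.6 and 58.3 CPM, within the 43.9 to 65.7 CPM of the other genotypes' libraries, against 3.67 to 8.36 CPM in replicates 2 and 3. A transcript level does not show whether protein is made, and the p65 folds of C3, CFP, C3AR1 and CD55 are given with and without that clone. The C3 fold with LPS in p65 was 0.14 ± 0.29 (adjusted p = 1, 0.0268% of genes called), and 0.13 without that clone.

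RELB clones differed from each other. C3 stood at 27.1 CPM untreated and 78.1 CPM with LPS in RELB replicate 1, and at 30.6 and 38.7 CPM in replicate 2. The ratio of 2.88 in replicate 1 was above that of every CTR clone, and the ratio of 1.26 in replicate 2 below all of them. The fold was 1.04 ± 0.35 (unadjusted p = 0.00822, adjusted p = 1, with 0.129% of genes called), and with clone as a block 0.94 ± 0.22 (adjusted p = 0.102). Without RELB replicate 1 it was 0.37. The clone means of 5 NF-kB target genes (NFKBIA, TNFAIP3, ICAM1, SOD2 and BIRC3) were close, at log2 differences of 2.76 and 2.39.

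With LPS present, C3 was lower in the p65 clones than in CTR. The 3 p65 libraries had 10.8, 53.8 and 34.8 CPM and the 3 CTR libraries 127, 40.9 and 109 CPM, so the groups overlap through p65 replicate 2 and CTR replicate 2. The log2 fold was −1.54 ± 0.29 (95% interval −2.16 to −0.93; adjusted p = 0.0103). It was again the single member called of 7, where 0.993% of genes were called and 0.655% called lower. The median fold of the 7 members was −0.17, against 0.01 for all genes.

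DESeq2 (adjusted p = 6.63e-05, with 4.67% of genes called) and limma voom (0.0108) made this call too. Without the clone labelled p65 replicate 1 this fold was −1.40 (adjusted p = 0.108). The call was lost as well without CTR replicate 1 (adjusted p = 0.0589), without CTR replicate 2 (0.0610) and without p65 replicate 3 (0.0567). In batch C alone, which holds 2 CTR and 2 p65 clones whose C3 values with LPS do not overlap, the fold was −1.44 (adjusted p = 0.345). With the effective length as an offset it was −1.37 (adjusted p = 0.0573), and without a batch term −1.48 (adjusted p = 0.456). In the untreated libraries the p65 against CTR fold was −0.32 ± 0.29 (adjusted p = 0.699, 0.0537% of genes called), and −0.18 without the clone labelled p65 replicate 1. This small fold ran from −0.70 without p65 replicate 2 to −0.10 without p65 replicate 3.

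For p50, p52, cREL and RELB, the size and even the sign of the C3 fold against CTR depended on how batch entered the fit. Batch A holds no CTR clone, and the only CTR clone of batch B, replicate 2, had the lowest C3 of the 3 controls. Untreated, the model gave folds of 1.47 ± 0.35 for p50 (unadjusted p = 4.0e-04, adjusted p = 0.440), 1.01 ± 0.35 for p52 (0.511 adjusted), 1.00 ± 0.35 for cREL (0.767 adjusted) and 1.01 ± 0.35 for RELB (0.305 adjusted). For p50 DESeq2 gave an adjusted p of 0.0325 in a fit where it called 0.302% of genes. edgeR with no filter on low counts gave 2.38e-04 for p50 and 0.0404 for RELB, where it called 0.450% and 1.41% of genes. With the filter these comparisons called 0%, 0%, 0% and 0.0107% of all genes. With LPS the folds were 0.39, −0.22, −0.48 and 0.68, none past the test, where 0.129%, 0.0698%, 0.199% and 0.0483% of genes were called. Without a batch term the untreated folds of p52, cREL and RELB were each −0.30, and the raw untreated means were 40.0 CPM in p50, 28.7 in p52, 28.9 in cREL and 28.9 in RELB, beside 35.5 in CTR.

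The differences in response compare the LPS effect of a knockout with that of CTR, so that a level shared by both libraries of a clone largely cancels in the fold. The main fit has no term for clone, so that shared level stays in its SE and p. For C3 they were −1.48 ± 0.45 for cREL (unadjusted p = 0.00386), −1.23 ± 0.45 for p52 (0.0132), −1.22 ± 0.41 for p65 (0.00691), −1.08 ± 0.45 for p50 (0.0266) and −0.33 ± 0.45 for RELB (0.479). All had an adjusted p of 1, and the p65 value was −1.22 without the clone labelled p65 replicate 1 as well. With clone as a block, the difference was −1.48 ± 0.28 for cREL (adjusted p = 0.147) and −1.19 ± 0.25 for p65 (adjusted p = 0.125). All 21 comparisons share libraries, and each of these 5 uses the same CTR response. Over the alternatives that were run, the 4 larger differences stayed below 0, from −1.71 to −0.72. Of all genes, 0% were called for p50, p52, cREL and RELB and 0.0161% for p65. At an unadjusted p under 0.05, C3 was the 1 member of 7 that passed for p50, p52, p65 and cREL, and 0 passed for RELB, where 2.95%, 2.55%, 2.79%, 3.01% and 2.14% of all genes passed at that level. DESeq2 called 0 members in these 5 comparisons, where it called 0.0161% to 0.152% of genes. edgeR with no filter called C3 for cREL (adjusted p = 0.0479), in a fit that called 0.181% of genes.

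**Figure D3:**
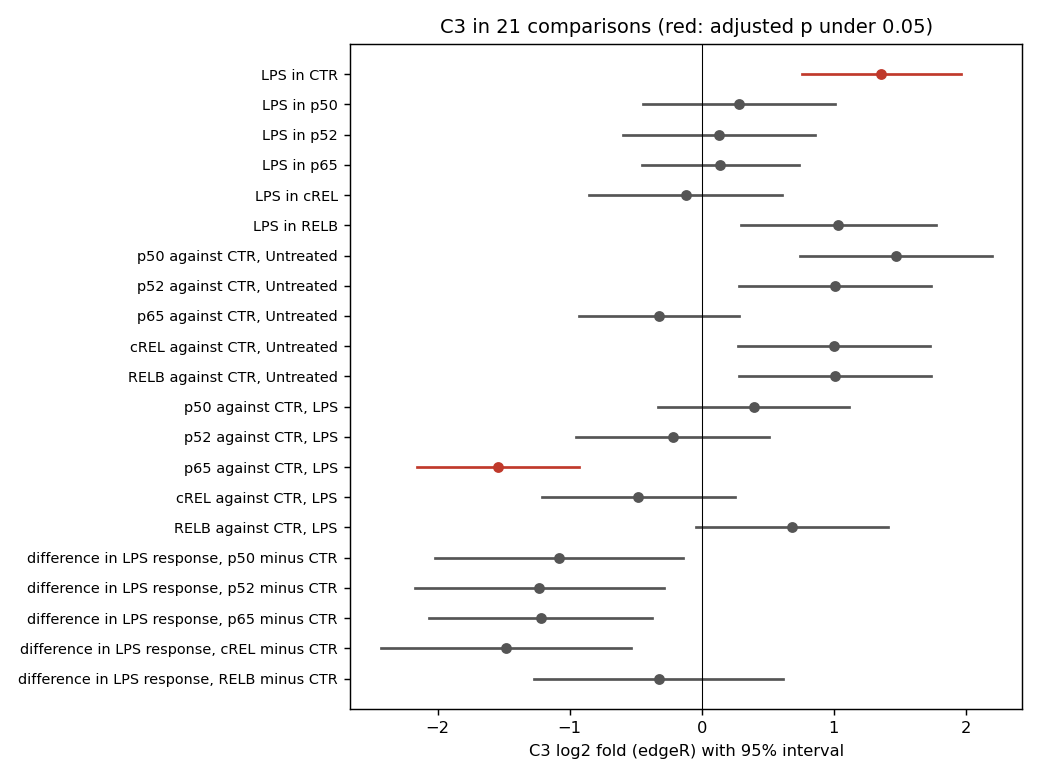
Log2 folds of C3 from edgeR in the 21 comparisons, points with 95% intervals, red where the adjusted p was under 0.05. LPS in CTR, at 1.36, and p65 against CTR with LPS, at −1.54, are the red points, and the differences in response lie below 0, at −1.48 to −0.33, with unadjusted intervals that hold 0 only for RELB.

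C2, the protease of the classical C3 convertase, had no call in any comparison. Its CTR values were 73.2, 48.8 and 42.5 CPM untreated and 90.4, 51.2 and 44.0 CPM with LPS in replicates 1, 2 and 3. Over all 28 libraries it lay between 37.5 and 91.0 CPM, and the clones overlapped widely between genotypes. The LPS fold was 0.16 in CTR, with a 95% interval of −0.43 to 0.76, and −0.02 to 0.23 over the 6 genotypes. The RELB clones had 74.0 and 65.4 CPM untreated and 91.0 and 65.1 CPM with LPS. Their fold against CTR was 0.66 at both states, with adjusted p of 0.496 untreated and 0.564 with LPS. With LPS it was 0.36 without RELB replicate 1 and 0.99 without RELB replicate 2. This does not show that C2 is equal in these genotypes.

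CFD, the protease that cleaves factor B in the alternative pathway, had no call in any comparison. Its CTR values were 90.4, 47.0 and 61.8 CPM untreated and 75.6, 39.8 and 59.4 CPM with LPS, a little lower in each clone. The LPS fold in CTR was −0.19 (95% interval −0.97 to 0.59; adjusted p = 1). The highest values came from p52 replicate 1, with 136 CPM untreated and 134 CPM with LPS, and p52 replicate 2 had 85.0 and 80.1 CPM. With LPS both p52 clones lay above all 3 CTR clones. The p52 fold against CTR was 1.34 ± 0.46 with LPS (unadjusted p = 0.00927, adjusted p = 0.298, 0.0698% of genes called) and 1.20 ± 0.46 untreated (adjusted p = 0.568, 0% called). Without CTR replicate 2 they were 0.78 and 0.66. With no filter on low counts both CFD folds of p52 passed (adjusted p = 2.58e-04 and 0.00342), in fits that called 0.908% and 0.411% of 38219 genes. They were 1.33 ± 0.27 with LPS and 1.20 ± 0.27 untreated there, so the SE changed and the folds hardly did.

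For p50, CFD was 107 and 49.9 CPM untreated and 109 and 70.3 CPM with LPS, so that 1 clone lay within the CTR range at both states. The fold with LPS was 1.09 ± 0.46 (adjusted p = 0.431, 0.129% of genes called), and 0.55 without CTR replicate 2. With no filter it was 1.08 ± 0.27 and passed (adjusted p = 0.00760), in a fit that called 1.05% of genes. p65 replicate 3 had 25.8 CPM untreated and 63.2 CPM with LPS, the widest CFD gap within a clone. CFD has the granule protease genes AZU1, PRTN3 and ELANE beside it on chromosome 19, with 3395 bases between ELANE and CFD. In the same clone PRTN3 had 247 and 680 CPM and ELANE 413 and 1204 CPM, so these neighbours were also higher with LPS there.

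CFP, which encodes properdin, had no call and varied widely between clones of 1 genotype. Its CTR values were 20.2, 5.36 and 9.33 CPM untreated and 22.8, 7.52 and 6.95 CPM with LPS. The LPS fold in CTR was 0.12 (95% interval −0.90 to 1.13; adjusted p = 1). Against CTR the folds were 1.66 ± 0.61 in p52, 1.56 ± 0.61 in p50 and 1.40 ± 0.61 in RELB untreated, and 1.57 ± 0.60, 1.55 ± 0.60 and 1.40 ± 0.60 with LPS, with adjusted p from 0.371 to 0.688. Without CTR replicate 2 alone they were 0.74, 0.58 and 0.43 untreated and 0.73, 0.73 and 0.60 with LPS, and without p50 replicate 1 the untreated p50 fold was 0.77. Without the clone labelled p65 replicate 1 the folds were 2.32, 2.15 and 2.00 untreated and 2.15, 2.15 and 2.02 with LPS, in the same order. With no filter on low counts all 6 passed, at adjusted p from 0.00338 to 0.0184, in fits that called 0.411% (p52), 0.450% (p50) and 1.41% (RELB) of genes untreated and 0.908%, 1.05% and 1.14% with LPS. Their folds there were 1.38 to 1.66, near those with the filter, and their SE was 0.36 to 0.37. The clones behind these folds were far apart: p50 had 35.1 and 7.85 CPM untreated, p52 22.1 and 16.3, and RELB 8.33 and 28.8.

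For CFP the higher clone of p50, of p52, of cREL and of RELB was each time the clone of batch B, and CFD followed the same order in p50, p52 and cREL. By batch, median CFP was 10.3 CPM in A, 22.7 in B and 17.7 in C, and median CFD 51.0, 105 and 69.4 CPM. CTR replicate 2, the control of batch B, had the lowest CFD of the controls at both states and the lowest untreated CFP. Within batch B, p50, p52, cREL and RELB are each 1 clone beside 1 CTR clone, with no replicate, and p65 has no clone there. In p65 CFP was 9.17, 29.8 and 10.4 CPM untreated and 13.0, 29.1 and 15.3 CPM with LPS, and the fold with LPS was 1.02 ± 0.50 (adjusted p = 0.413). Without the clone labelled p65 replicate 1 it was 0.50 (adjusted p = 0.803), without CTR replicate 2 0.65 and without CTR replicate 1 1.76. With no filter the CFP fold of p65 with LPS was 1.03 ± 0.30 and passed (adjusted p = 0.0252), in a fit that called 2.60% of genes.

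**Figure D4:**
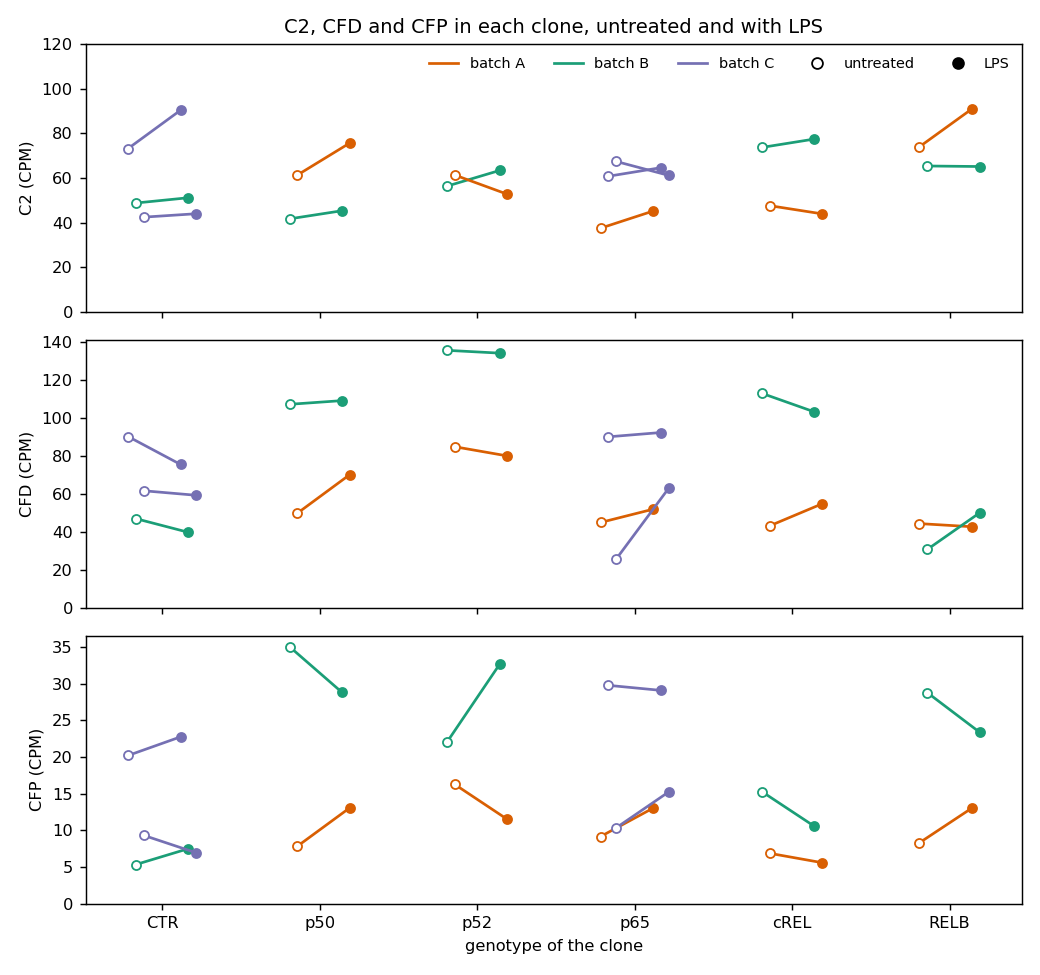
C2, CFD and CFP in TMM-scaled CPM for each clone, open circles untreated and filled circles with LPS, joined by a line and coloured by batch; each panel starts at 0. Clones of 1 genotype lie apart, the lines often run in different directions within a genotype, and the CFD line of p65 replicate 3 rises from 25.8 to 63.2 CPM.

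CFB, the protease zymogen of the alternative pathway, held 204 estimated counts over all libraries and at most 22.6 in one. In CTR it had 4, 10 and 0 counts untreated and 6.06, 14 and 14 counts with LPS in replicates 1, 2 and 3. Each CTR clone thus had more with LPS, at counts too low to measure a fold well: the estimate was 1.18 ± 1.39 (95% interval −1.73 to 4.09; adjusted p = 1). In the p65 libraries CFB had 5, 11 and 5 counts untreated and 2.14, 6 and 15 counts with LPS. A readthrough transcript gene, AL645922.1, overlaps both C2 and CFB and held 76.6 counts over all libraries, so the split between these rows is uncertain.

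C1R held 647 estimated counts in all and C1S 157, with no library of C1R over 51.0 counts or of C1S over 19.7. In CTR, C1R was 0.537 ± 0.433 TPM untreated and 0.880 ± 0.665 TPM with LPS, and C1S 0.453 ± 0.314 and 0.637 ± 0.601 TPM (SD, n = 3). The highest group mean of C1R was 1.51 TPM, in untreated p65, and that of C1S 1.48 TPM, in untreated RELB, where 1 clone had 2.67 and the other 0.29 TPM. No comparison passed: the LPS folds in CTR were 0.33 ± 0.69 for C1R and 1.44 ± 1.04 for C1S, and the lowest adjusted p over the 21 comparisons was 0.675 for C1R and 0.462 for C1S. The 95% interval of that LPS fold ran from −1.12 to 1.78 for C1R and from −0.73 to 3.62 for C1S, so only wide limits can be set at this depth. C1S overlaps EMG1 and LPCAT3 and C1R overlaps C1RL, so a part of these few reads may belong to those genes.

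A list of 48 further complement genes gives the setting. In it 15 genes had a mean of at least 1 TPM, 33 were under 1 TPM, and 6 (FCN2, C6, C8A, C8B, CFHR4 and CFHR5) were listed at 0 in all libraries. The highest means were those of C1QBP, a mitochondrial protein that also binds C1q (658 TPM), the integrin chain ITGB2 of the receptors for C3 fragments (261 TPM), the soluble regulator CLU (224 TPM) and CD93 (173 TPM). C4A and C4B, substrates of C1s, had means of 0.63 and 0.26 TPM, and as near-identical copies their split is uncertain. Of the 48, 24 were tested: 1 rose with LPS in CTR, where 0.403% of all genes were called higher, and 2 were lower in p65 than in CTR with LPS, where 0.655% were called lower. The median folds of the 24 were 0.01 and −0.21. The other comparisons had no call with edgeR. DESeq2 also called 2 in untreated p65, where it called 2.89% of all genes. It called 3 in RELB at each state (1.65% of all genes untreated and 1.59% with LPS) and 1 in the p65 difference in response (0.152%).

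The gene that rose was C3AR1 (chromosome 12, 8058302 to 8066471), the receptor for the C3a fragment. It had 13.2, 19.01 and 12.5 CPM in untreated CTR replicates 1, 2 and 3 and 126, 50.4 and 123 CPM with LPS, so that the groups did not overlap. The log2 fold was 2.79 ± 0.42 (adjusted p = 0.00217), and without CTR replicate 1 it was 2.53 (0.104) and without CTR replicate 3 it was 2.51 (0.131). In the p65 clones C3AR1 had 11.9, 3.78 and 13.3 CPM untreated and 13.2, 13.4 and 18.0 CPM with LPS. With LPS the p65 clones lay below all CTR clones, by −2.60 ± 0.42 (adjusted p = 0.00348), by −2.71 without the clone labelled p65 replicate 1 (adjusted p = 0.0109), and in batch C alone by −3.01 (adjusted p = 0.166).

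Both RELB clones had high C3AR1, 34.6 and 58.7 CPM untreated and 103 and 141 CPM with LPS. The p50 clones had 37.2 and 27.2 CPM untreated and 58.1 and 45.8 CPM with LPS, and the p52 clones 26.6 and 20.2, and 52.8 and 34.4 CPM. cREL had 26.1 and 9.43 CPM untreated and 48.6 and 22.8 CPM with LPS. All 14 clones had more C3AR1 with LPS, by ratios from 1.12 in the clone labelled p65 replicate 1 to 9.80 in CTR replicate 3.

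CD55, the decay-accelerating factor that takes C3 convertases apart on the cell surface (chromosome 1, 207321376 to 207386804), was the other gene that passed in p65 with LPS. It had 156, 114 and 125 CPM in the CTR libraries and 71.1, 89.7 and 85.9 CPM in the p65 libraries, with no overlap. The log2 fold was −0.74 ± 0.16 (adjusted p = 0.0281). Without the clone labelled p65 replicate 1 the call was lost (adjusted p = 0.157), as it was without CTR replicate 1 or 2, without p52 replicate 1 and without either other p65 clone (adjusted p from 0.0504 to 0.132). Untreated, the fold was −0.79 (adjusted p = 0.0844), so the lower CD55 values were present in both states. With LPS the mean was 82.2 CPM in p65, 80.0 in p50, 76.5 in p52 and 81.4 in cREL, against 106 in RELB and 132 in CTR, and untreated all 5 knockouts had means of 65.3 to 74.6 CPM, against 109 in CTR. The folds of p50, p52 and cREL with LPS, −0.56, −0.64 and −0.54, did not pass (adjusted p = 0.318, 0.222 and 0.348).

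**Figure D5:**
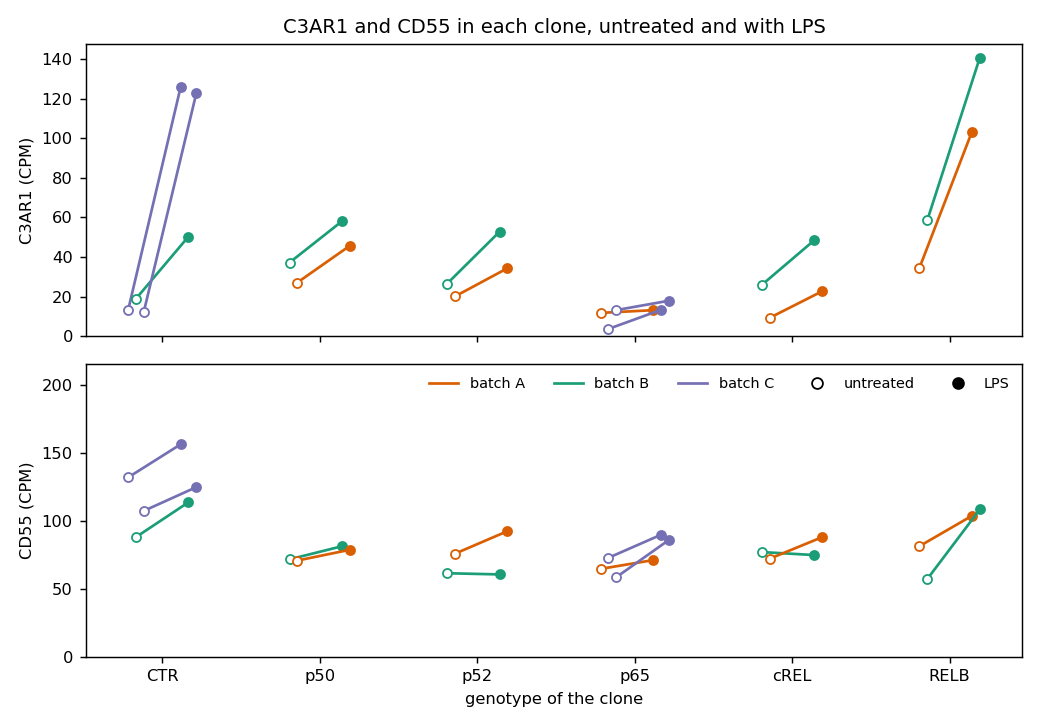
C3AR1 and CD55 in TMM-scaled CPM for each clone, open circles untreated and filled circles with LPS, joined by a line and coloured by batch; both panels start at 0. C3AR1 reaches 126 and 123 CPM in the CTR clones of batch C and at most 18.0 CPM in the p65 clones, and CD55 lies between 71.1 and 89.7 CPM in the p65 clones with LPS, under the 114 to 156 CPM of CTR.

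The log2 difference of C3 with LPS was alike in the 3 CTR clones, at 1.42, 1.30 and 1.35. The mean over the 5 NF-kB target genes was 2.90, 2.21 and 3.65 in the same clones, and 0.63, 0.97 and 0.91 in the p65 clones. That mean was 1.26 and 0.66 in the cREL clones, 1.22 and 1.51 in the p50 clones and 1.55 and 1.99 in the p52 clones. In the RELB clones it was 2.76 and 2.39.

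Genes with a like pattern were found by Pearson's r over the 12 group means of log2 CPM among 9982 genes with at least 5 CPM. This is a description over groups that share clones and batches. How high the best r of so wide a search would be for unrelated genes was not tested. C3 was most like NR3C1, the glucocorticoid receptor gene (0.95), ZNFX1 (0.93) and the cytokine gene TNF (0.91). C2 was most like HLA-DMA (0.97), the kinase gene GSK3B (0.94) and the invariant chain gene CD74 (0.94). CFD was most like KDELR1 (0.97), the pseudogene FABP5P7 (0.92) and its neighbour PRTN3 (0.92), and CFP like CD4 (0.94), NSUN4 (0.91) and TGM5 (0.88). For CFB, C1R and C1S the best r was 0.88, 0.86 and 0.87, although their counts were low.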

How the data were processed

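RNA from 28 libraries of 14 U937 clones was measured. The authors deposited estimated counts per gene, TPM values scaled to a common total per library, and effective lengths in bases. Salmon 0.11.3, FastQC 0.11.7 and build GRCh38 were used, per the submitters' processing notes, and their annotation release is not given in the sources used here. Of the nonzero estimated counts, 41.0 to 47.5% were whole numbers. Per the labels' protocols, cDNA was made with oligo(dT) primers and amplified by PCR, so counts are not independent molecules. All 56809 symbols matched GENCODE release 29.

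Group, replicate and batch came from the labels. Libraries of 1 group correlated with each other at 0.947 to 0.969 over 20 pairs, none identical. Untreated and LPS libraries with the same genotype and number come from 1 clone, per the series' design, and their deviations from the group means correlated at 0.203 to 0.441. Rounded counts went into edgeR 4.0.16 under R 4.3.3 (filterByExpr, minimum count 10, minimum total 15; TMM; robust quasi-likelihood; 12 groups plus batch; 14 residual degrees of freedom), at an adjusted p under 0.05. The code was tested on simulated data. The 22 alternatives included DESeq2 1.42.0, limma 3.58.1 voom, other scaling, no filter, no batch term, an effective length offset, a clone block, batch C alone and each clone left out. Log2 CPM used a prior count of 2. The text names the 8 members, other complement genes that passed a test or had the 4 highest mean TPM, and the 3 genes most like each member. Members, lists and tests were chosen with earlier results of these data known. Some results for single genes are left out here.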

Additional observations from a re-analysis of the deposited data

Results flagged for a closer look

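Each of the 7 members tested was paired with every knockout. In 4 of these pairs all CTR clones moved in the same direction with LPS and all knockout clones in the opposite direction. How often this happens over all genes tested was not counted, so the 4 pairs have no background rate. With 2 or 3 clones a group, opposite signs can arise without an effect of the knockout. C3 was higher with LPS in all 3 CTR clones and lower in both cREL clones (mean log2 differences 1.36 and −0.12), and edgeR's test of the difference gave −1.48 ± 0.45 (unadjusted p = 0.00386, adjusted p = 1). CFD was lower in all 3 CTR clones (mean −0.18) and higher in both p50 clones (0.26), a difference of 0.42 ± 0.58 (adjusted p = 1), and higher in all 3 p65 clones (0.51), a difference of 0.53 ± 0.52 (adjusted p = 1). C1R was higher in all 3 CTR clones (0.23) and lower in all 3 p65 clones (−0.57), at 7 to 43.2 estimated counts a library, a difference of −0.87 ± 0.97 (adjusted p = 1). The CFD movements in CTR, from −0.26 to −0.06, are small beside the spread between clones. Both p65 pairs include the clone labelled p65 replicate 1, which held RELA at 53.6 CPM untreated and 58.3 CPM with LPS, within the range of the other genotypes. The mean log2 difference of the NF-kB target genes in that clone was 0.63. It was 0.97 and 0.91 in p65 replicates 2 and 3, and 2.21 to 3.65 in the CTR clones. Whether p65 protein is made in that clone was not tested. Groups held 2 or 3 clones, too few for a search for single outlying clones.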

How the results depend on the processing

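The number of members called was equal to the first count, or within 1.5 times it, in 409 alternative counts and beyond it in 27. The first count was 0 in every comparison except LPS in CTR and p65 against CTR with LPS. A count of 0 that stayed 0 is among the 409, so that total does not measure how stable the C3 calls were. For LPS in CTR the count of 1 became 0 without a batch term, with the effective length offset and in batch C alone, and 0 to 1 with single clones left out. For p65 against CTR with LPS the count of 1 became 0 under the same settings, 2 without the filter, and 0 to 1 with single clones left out. From 0, DESeq2 called 1 for p50 untreated, where it called 0.302% of genes. Without the filter, 2 were called for p50 and p52 in both states and for RELB untreated, and 1 for RELB with LPS and for the cREL difference in response. In these comparisons 0.181% to 1.41% of genes were called without the filter. For CFD and CFP the folds there were near those of the main fit and the SE smaller, and why was not tested. Those calls without the filter were of CFD (p50 with LPS, adjusted p = 0.00760; p52 with LPS, 2.58e-04, and untreated, 0.00342), CFP and C3, among 38219 genes tested.

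Some C3 folds changed sign. With the effective length offset LPS in p52 was −0.11. Without a batch term p50 with LPS was −0.94, p52 untreated −0.30, cREL untreated −0.30, RELB untreated −0.30 and RELB with LPS −0.66. With single clones left out the C3 difference in response of RELB ran from −0.98 to 0.17, p52 with LPS from −0.50 to 0.088 and RELB with LPS from −0.031 to 1.28. CFP for LPS in CTR was −0.010 in batch C alone and −0.018 to 0.27 with single clones left out. Apart from the construction of each setting, the cause was not tested. With the replicate block C3 for LPS in CTR was 1.36 (adjusted p = 4.16e-04), and the block changed no call of a member. Counts of CFB, C1R and C1S were too low to set narrow limits, and SERPING1 could not be tested.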
